A study of Mus musculus with 6 samples.

Results

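The genes described here are 38 chaperones, stress sensors and stress-response factors of the unfolded protein response and the heat shock response. They are a list of named genes with no threshold on any value, and all 38 were found among the 22962 genes of the table. They form an endoplasmic reticulum (ER) arm of 27 genes and a heat shock arm of 11. RNA sequencing had been done on alveolar macrophages of C57BL/6 mice, the phagocytes of the air spaces, collected by lavage 2 weeks after saline or bleomycin was given into the trachea. Bleomycin damages DNA and is used to produce lung fibrosis in mice. Lavage cells of both groups went through lysis of red blood cells, 30 min on a culture plate and repeated washing, and the adherent cells were lysed on the plate. Replicates 1, 2 and 3 represent saline and replicates 1, 2 and 5 represent bleomycin, at 3 libraries per group. The sources used here do not give the age, the sex, any genotype beyond the strain or the number of mice behind a library, so p-values measure only the spread between these samples, which may be technical.

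Proteins that enter the ER are folded by chaperones such as BiP and by enzymes that form disulfide bonds, and those that fail are sent back to the cytosol for degradation. When unfolded proteins build up, the sensors IRE1, PERK and ATF6 raise folding and degradation capacity and slow translation, which is the unfolded protein response. In the cytosol, heat shock factor 1 does the corresponding work, inducing HSP70, HSP90, HSP40 and small heat shock proteins when proteins unfold through heat, oxidants or handling. Alveolar macrophages take up and digest large amounts of surfactant and debris. Genes of both systems were read in the saline libraries too, whose cells had also gone through lavage and plating.

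Both responses act through short promoter elements, and the elements found in the members' own promoters are described first. RefSeq promoter windows on GRCm38.p6, from 250 bases before to 50 after a gene's start, were found for 31 of the 38 members, 24 of the ER arm and 7 of the heat shock arm. The ER stress element, read as CCAAT and CCACG 9 bases apart on either strand, was present in 8 of the 24 ER members (33.3%), namely Calr, Canx, Creld2, Dnajc3, Hsp90b1, Hspa5, Pdia6 and Syvn1. It was present in 0.162% of the 9875 tested genes with a window and in 0.137% of all 27025 genes with one. The tested genes with the element numbered 16, the 8 members among them. Shares of tested genes and of all genes include the members here and for the elements that follow. The short form, ATTGG and CCACG 1 base apart, was found in Dnajb11 and Herpud1 (8.33% of ER members, 0.081% of tested genes, 0.0444% of all). The heat shock element was read as 3 alternating GAA and TTC units with 2 bases between them. It stood in Hspd1, Hspe1 and Hsph1, 3 of the 7 heat shock members (42.9%), against 0.577% of tested genes and 0.662% of all. A pair of such units, with or without a further unit, is also part of every full element. Pairs were found in 6 of the 7 (85.7%), the exception being Dnajb1, and in 14.2% of tested genes and 17.0% of all. Among the ER members Eif2ak3 alone held such a unit pair.

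The stretches below are printed 5′ to 3′ along the gene's own strand, with the matched element in capitals. An element that matched on the opposite strand reads as CGTGG followed by ATTGG. They show the ER element of the 3 ER chaperones with a match that had the highest level per kilobase, and of Herpud1, the shared block of the divergent genes Hspd1 and Hspe1, and the unit pairs of the inducible Hsp70 genes and of Hspb1, whose values stood apart.
Hspa5 (chr2:34772020-34772048, plus strand): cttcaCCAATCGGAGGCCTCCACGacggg
Calr (chr8:84847070-84847098, minus strand): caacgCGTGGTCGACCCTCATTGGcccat
Hsp90b1 (chr10:86705633-86705661, minus strand): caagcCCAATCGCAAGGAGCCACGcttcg
Herpud1 (chr8:94386368-94386396, plus strand): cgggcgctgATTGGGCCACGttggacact
Hspd1 (chr1:55088053-55088082, minus strand): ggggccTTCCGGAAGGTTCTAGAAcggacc
Hspe1 (chr1:55088053-55088082, plus strand): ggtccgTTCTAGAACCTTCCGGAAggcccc
Hspa1a (chr17:34972243-34972270, minus strand): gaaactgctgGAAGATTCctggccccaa
Hspa1b (chr17:34959325-34959352, minus strand): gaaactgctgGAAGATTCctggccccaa
Hspb1 (chr5:135887792-135887819, plus strand): ttcaacaagaGAAGTTTCcagatggggg
Hspb1 (chr5:135887812-135887839, plus strand): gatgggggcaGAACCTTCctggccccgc

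Hspd1 and Hspe1 are read in opposite directions from the same block, so their stretches are the 2 strands of 1 sequence. The stretches of Hspa1a and Hspa1b are identical letter for letter. Other elements were found in few members or in none. The UPR element, TGACG directly followed by TGG, stood in 0 of the 31 windows, against 0.992% of tested genes and 0.714% of all. The amino acid response element, TGATG followed by AA after 1 base, was found in Herpud1 and Trib3 (8.33% of ER members), against 2.85% of tested genes and 4.51% of all. The cyclic AMP element TGACGTCA was found in Ppp1r15a (4.17% of ER members), against 3.63% and 2.03%. A match is a run of letters and does not show that a factor was bound.

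In the bleomycin libraries 1 member, the small heat shock protein gene Hspb1, rose, and 0 fell. The remaining 37 did not pass the threshold, an adjusted p under 0.05 by limma on log2(value + 1) over the 13512 tested genes. Of all tested genes 13.7% passed, 9.76% as higher and 3.9% as lower. An unadjusted p under 0.05 was reached by 8 of 38 members (21.1%) and by 25.9% of all tested genes. All 38 members passed the filter on low values. Of the saline libraries only replicate 3 reached the minimum of 10 for Hspb1, so it passed only with the help of its bleomycin libraries. A higher level there was thus favoured before the test. Hspb1 was called by limma, edgeR and DESeq2, and the number of other members past the threshold moved with the tool. Over the reads recovered from the values, edgeR called 2 members higher (Eif2ak3 and Hspb1) and DESeq2 called the same 2 higher and 3 lower (Hsp90ab1, Pdia4 and Xbp1). Over all genes these tools called 13.5% and 17.1%. Saline replicate 2 stood apart in heat shock and early activation genes, with the values given below, and without it limma called 2 members higher (Hspb1 and Ppp1r15a) and 1 lower (Xbp1). In bulk samples a change in how many cells of a type are present and a change in RNA per cell cannot be told apart, which holds for every difference given here.

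The differences of most ER members were small and measured narrowly, and those of the heat shock members were measured less narrowly. The 95% interval of the fold change lay within 2-fold either way for 34 of 38 members (89.5%), against 67.1% of all tested genes, the exceptions being Hspa1a, Hspa1b, Hspb1 and Ppp1r15a. It lay within 1.5-fold for 18 of 38 (47.4%, against 37.5%). By arm, it lay within 2-fold for 26 of 27 ER members (96.3%) and 8 of 11 heat shock members (72.7%). Within 1.5-fold the counts were 16 of 27 (59.3%) and 2 of 11 (18.2%). The tested genes were not matched to the members for level. The median log2 difference, bleomycin minus saline, was -0.15 over the members and -0.0096 over all tested genes. The ER arm had a median of -0.097, with 12 differences above 0 and 15 below. In the heat shock arm the median was -0.40, with 10 of 11 below 0. Without saline replicate 2, Dnajb1 (0.10) and Hspe1 (0.063) turned above 0. All 3 bleomycin libraries lay above all 3 saline libraries for 3 members (Edem1, Eif2ak3 and Hspb1) and below them for 6 (Hyou1, Pdia4, Xbp1, Hsf1, Hsp90ab1 and Hspd1), where 17.2% and 13.6% of all tested genes did so.

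**Figure D1:**
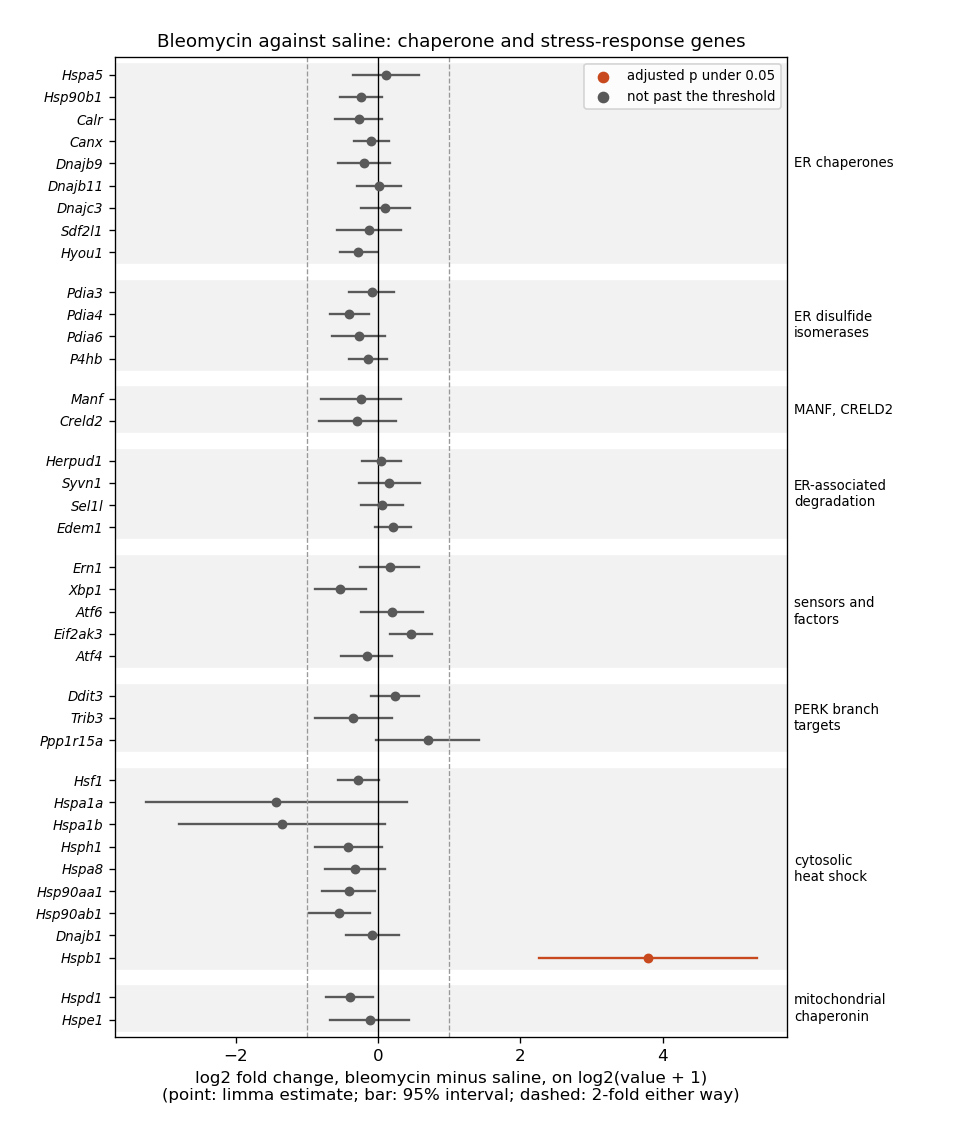
Log2 difference, bleomycin minus saline, of each of the 38 members with its 95% interval (x axis), grouped by role (y axis), from limma on log2(value + 1) with 3 libraries per group. Hspb1 stands at 3.79 on its own, and the ER members lie between -0.53 and 0.69.

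Values are read counts that the authors normalized for library size, given below in the order of replicates 1, 2 and 3 for saline and 1, 2 and 5 for bleomycin, and differences are log2 ± SE. Folds are fitted on the log2(value + 1) scale and are not ratios of the group means. To compare levels between genes, mean values were divided by exon length. In saline the highest level was that of Hsp90ab1, an HSP90 of the cytosol, at 25675 per kilobase (libraries 19629 to 32054). Hspa8, the constitutive HSP70, was at 22882 (19825 to 28276) and Calr, a lectin chaperone, at 21234 (17718 to 23497), and the library ranges of these 3 genes overlapped. Next came Hspa5 at 11718 (9608 to 15059.5) and Pdia3 at 10757 (9177 to 11875), which overlapped each other and lay below the first 3. The lowest were Ern1 at 102, Trib3 at 66.2 and Hspb1 at 5.42 per kilobase. With bleomycin the same 3 genes led, in the order Hspa8 at 18156, Calr at 17469 and Hsp90ab1 at 17275, again with overlapping libraries. The lowest were then Hspa1a at 99.4, Hspb1 at 66.1 and Trib3 at 53.0.

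**Figure D2:**
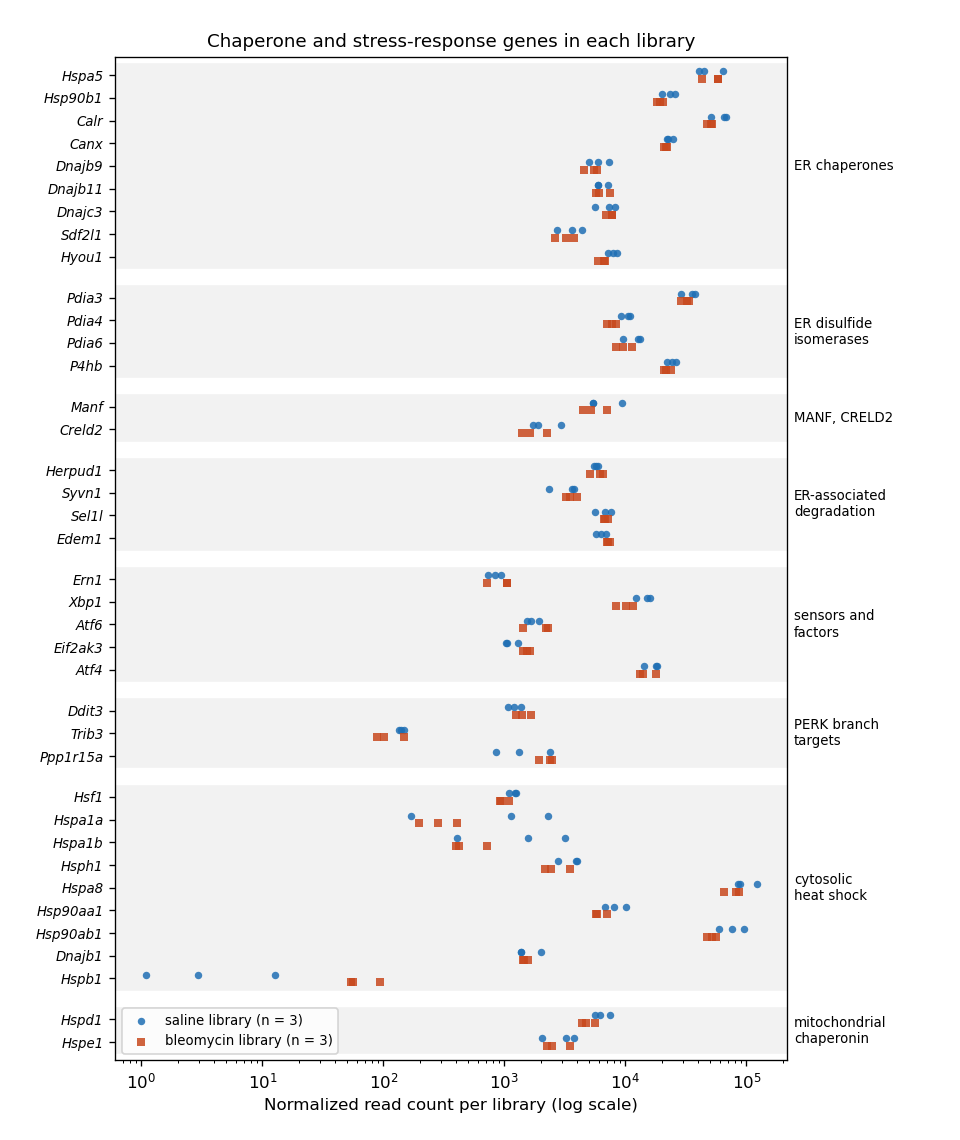
Value of each of the 38 members in each of the 6 libraries (normalized read counts, log axis), 3 per group, arranged by role. For most members the saline and bleomycin points overlap, and Hspb1 is the member whose groups lie farthest apart.

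The resident chaperones of the ER lumen had 0 of 9 past the threshold by limma, with 1 at an unadjusted p under 0.05. Hspa5 encodes BiP, the HSP70 of the ER and the usual readout of ER stress. Its values were 40633, 44345 and 63687 (saline) and 58004, 57962 and 42701 (bleomycin). The groups overlapped, with the highest value in saline replicate 3 and the lowest in saline replicate 1. The difference was 0.11 ± 0.20, a fold of 1.08 with a 95% interval of 0.783 to 1.48 (limma adjusted p = 0.807), which lies below a 2-fold rise. Hyou1, a large HSP70-like protein that exchanges nucleotide on BiP, had values of 7915, 7140.3 and 8501 (saline) and 6618, 6831 and 5973 (bleomycin). All 3 bleomycin values were lower than all 3 saline values, with a fitted level 1.21-fold lower (-0.28 ± 0.11, limma adjusted p = 0.163). For Hsp90b1, the HSP90 of the ER known as GRP94, they were 20034, 25744 and 23202 (saline) and 20503, 19317 and 18271 (bleomycin). Those of Calr, which encodes calreticulin, were 51027, 67672 and 64766 (saline) and 51116, 52305 and 47508 (bleomycin). In both, bleomycin replicate 1 lay just above saline replicate 1, and the differences were -0.24 ± 0.13 and -0.27 ± 0.14 (limma adjusted p = 0.285 and 0.291). The membrane-bound partner of calreticulin, Canx, had a difference of -0.097 ± 0.11. Among the cofactors of BiP, the J-domain genes Dnajb9, Dnajb11 and Dnajc3 had differences of -0.19 ± 0.16, 0.011 ± 0.14 and 0.10 ± 0.15, and Sdf2l1 of -0.13 ± 0.20, with limma adjusted p between 0.524 and 0.976 over these 4.

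The protein disulfide isomerases, which form and reshuffle disulfide bonds, gave differences below 0 in 4 of 4, with 0 past the threshold by limma and 1 at an unadjusted p under 0.05. Pdia4 stood furthest out, with values of 9216, 10578 and 10988 (saline) and 8417, 7780.2 and 7053 (bleomycin). The groups did not overlap, and the fitted level was 1.32-fold lower with bleomycin (-0.40 ± 0.12, limma adjusted p = 0.0583). It passed by DESeq2 (adjusted p = 0.0238), without saline replicate 1 (0.0491 by limma) and without bleomycin replicate 1 (0.0371 by limma), and its adjusted p ran from 0.0238 to 0.775 over 17 alternatives. Pdia6 had values of 9607, 12675 and 13150.3 (saline) and 11390.3, 9646 and 8296 (bleomycin), overlapping (-0.27 ± 0.16, limma adjusted p = 0.357). P4hb, the founding isomerase PDI, had values of 24139, 22273 and 26235 (saline) and 23699.6, 21477 and 20799 (bleomycin) (-0.14 ± 0.12, limma adjusted p = 0.534). Pdia3, which works with calnexin and calreticulin on glycoproteins, had a difference of -0.094 ± 0.14.

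Manf and Creld2 encode small ER proteins that are secreted under stress. Manf values were 5365, 5373 and 9401 (saline) and 7095, 5181 and 4506 (bleomycin), and those of Creld2 were 1709, 1882 and 2928 (saline) and 2268, 1619.5 and 1393 (bleomycin). In both, saline replicate 3 was the highest of the 6 libraries and bleomycin replicate 1 the next, with the other 4 close together. The differences were -0.24 ± 0.25 and -0.29 ± 0.24 (limma adjusted p = 0.628 and 0.514). Their summed level was 7074, 7254 and 12329 (saline) and 9363, 6800.1 and 5899 (bleomycin).

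Genes of ER-associated degradation, the route that returns misfolded proteins to the proteasome, had 4 of 4 differences above 0, with 0 past the threshold by limma and 0 at an unadjusted p under 0.05. The directions turned when libraries were left out, Syvn1 to -0.063 and Sel1l to -0.062 without saline replicate 2, and Herpud1 to -0.024 without bleomycin replicate 2. Edem1, a lectin that hands glycoproteins to degradation, had values of 6900.2, 5692 and 6252 (saline) and 7002, 7513 and 7128 (bleomycin), with all bleomycin libraries above all saline libraries (1.15-fold, 0.20 ± 0.11, limma adjusted p = 0.301). Syvn1, the ubiquitin ligase HRD1, had values of 3771, 2342 and 3649 (saline) and 3474, 3985 and 3232 (bleomycin), and saline replicate 2 was the lowest (0.16 ± 0.19, limma adjusted p = 0.682). Sel1l, its membrane partner, had values of 7609, 5645 and 6731 (saline) and 6646, 7125 and 6803 (bleomycin), again lowest in saline replicate 2 (0.052 ± 0.13, limma adjusted p = 0.855). Herpud1, which recruits the ligase complex, had a difference of 0.046 ± 0.12. The 8 ER members with the full ER stress element in their window held 0 called genes, and their differences ran from -0.29 to 0.16 with a median of -0.17.

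The sensors and transcription factors of the unfolded protein response had 0 of 5 past the threshold by limma and 2 at an unadjusted p under 0.05, with non-overlapping groups in opposite directions for Xbp1 and Eif2ak3. Xbp1, whose mRNA is spliced by IRE1 into the message of a transcription factor, had values of 15179, 12137 and 15831 (saline) and 11527, 10106 and 8303 (bleomycin). All 3 bleomycin libraries lay below all 3 saline libraries, with a fitted level 1.45-fold lower and a 95% interval of the fold, bleomycin over saline, of 0.540 to 0.887 (-0.53 ± 0.16, limma adjusted p = 0.0595). Eif2ak3, which encodes PERK, the sensor that phosphorylates eIF2 alpha, had values of 1285, 1054 and 1028 (saline) and 1428, 1640.4 and 1541 (bleomycin). Here all bleomycin libraries lay above all saline libraries, 1.37-fold with an interval of 1.12 to 1.69 (0.46 ± 0.13, limma adjusted p = 0.0514). Both lie close to the threshold, and their calls moved with small changes of the analysis. Eif2ak3 passed in 6 of 17 alternatives, among them edgeR (adjusted p = 0.049), DESeq2 (0.0213), and limma without saline replicate 1 (0.0317) or bleomycin replicate 1 (0.0434), with a range of 0.0213 to 0.632. Xbp1 passed in 4, by DESeq2 (0.0191), by limma without saline replicate 2 (0.042), without bleomycin replicate 1 (0.028) and without both together (0.00815), with a range of 0.00815 to 0.704.

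Atf6, the sensor that is cut in the Golgi to free a transcription factor, had values of 1921, 1646 and 1546 (saline) and 1427, 2289.8 and 2227 (bleomycin). Bleomycin replicate 1 was the lowest of all and the other bleomycin libraries the highest (0.19 ± 0.19, limma adjusted p = 0.612). Atf4, whose protein is made when eIF2 alpha is phosphorylated, had values of 14207, 18034 and 18327 (saline) and 18075, 13294 and 13909.6 (bleomycin) (-0.16 ± 0.16, limma adjusted p = 0.595). Ern1, which encodes IRE1, had a difference of 0.16 ± 0.18 at means of 834 ± 104 in saline and 945 ± 197 in bleomycin (SD, n = 3). Gene counts show neither the splicing of Xbp1 nor the cutting of ATF6, the phosphorylation of PERK or the translation of Atf4, which are the steps by which these sensors act.

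Among the targets of the PERK and ATF4 branch 0 of 3 passed the threshold by limma, and 0 had an unadjusted p under 0.05. Ppp1r15a, which encodes GADD34, the phosphatase subunit that ends the translation block, had values of 850.1, 2369 and 1329 (saline) and 1931, 2391 and 2458 (bleomycin). Saline replicate 2 lay among the bleomycin libraries and saline replicates 1 and 3 below them, and the difference was 0.69 ± 0.32 (limma adjusted p = 0.215). Without saline replicate 2 it was 1.08 with a limma adjusted p of 0.0181, past the threshold, and over 17 alternatives the adjusted p ran from 0.00751 to 0.45. Ddit3, the transcription factor CHOP that promotes death under lasting ER stress, had values of 1081, 1194 and 1361 (saline) and 1652, 1388 and 1243 (bleomycin) (0.23 ± 0.15, limma adjusted p = 0.385). Trib3, a pseudokinase induced by ATF4 and CHOP, was near the bottom of the members with values of 148, 140.2 and 134 (saline) and 148, 87.9 and 102 (bleomycin) (-0.35 ± 0.24, limma adjusted p = 0.422).

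In the heat shock arm Hspb1 rose. It encodes a small heat shock protein that holds unfolding proteins and binds actin, common in epithelium and muscle. Its values were 2.94, 1.09 and 12.7 (saline) and 56.6, 93.4 and 54.3 (bleomycin), which rest on 16 reads over the saline libraries and 211 over the bleomycin libraries. All 3 bleomycin libraries lay above the highest saline library, saline replicate 3. Means were 5.59 ± 6.25 in saline and 68.1 ± 21.9 in bleomycin (SD, n = 3). The fold fitted on the log2(value + 1) scale, which is not the ratio of these means, was 13.9 with a 95% interval of 4.81 to 40.0 (3.79 ± 0.67, limma adjusted p = 0.00677). The size depended on the scale and on the libraries, with a log2 difference of 2.90 at a pseudocount of 5, 2.91 after quantile normalization and 3.19 without saline replicate 2. It was 4.55 without saline replicate 3, and with no filter the limma adjusted p was 0.00503. The limma, edgeR or DESeq2 adjusted p ran from 1.58e-06 to 0.0363 over 17 alternatives and passed in each. Even in bleomycin the level stayed at 66.1 per kilobase, next to last among the 38 members.

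Markers of epithelium and fibroblasts were counted in the same libraries, and those of epithelium differed in both directions. Of 14 lung epithelial markers 9 were called higher and 2 lower with bleomycin. The higher ones included Krt8, with values of 7.84, 6.52 and 28.6 (saline) and 151, 318 and 324 (bleomycin), Krt18, with values of 13.7, 15.2 and 23.3 (saline) and 177, 354 and 418 (bleomycin), and Sftpc, with values of 46.1, 36.9 and 41.4 (saline) and 206, 341 and 479 (bleomycin). Summed over the list, however, the level was 24784, 31976 and 31213 (saline) and 19495, 13995 and 12536 (bleomycin), a sum that Krt19 and Epcam dominate. Both of these were called lower (Krt19 -1.22 ± 0.25, Epcam -1.66 ± 0.21, limma adjusted p = 0.0133 and 0.00135). Of 8 tested fibroblast markers 4 were higher and 0 lower, and the sum was 57479.5, 37659 and 31781 (saline) and 63135, 113979 and 142787 (bleomycin), with Lum and Tcf21 at 0 in saline. This sum was taken over all 12 listed fibroblast markers. Of the 8 tested, 5 did not reach the filter's minimum value in every saline library, so the sum need not follow most of these markers. The part of epithelial or fibroblast RNA in the Hspb1 result was not tested.

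Markers of macrophage types differed between the groups as well. Among 15 markers of resident alveolar macrophages 10 were called lower and 0 higher, and their sum was 719316 to 855049 with saline and 432415 to 566151 with bleomycin. Among 15 markers of monocytes and monocyte-derived macrophages 12 were higher and 0 lower, with a sum of 14225 to 18563 with saline and 158142 to 291399.8 with bleomycin. General macrophage markers, led by Lyz2 and Cd68, were abundant in every library (sum 798145 to 946952 with saline and 1430988 to 1707808 with bleomycin), and 3 of 9 were higher. Markers of plasma and B cells were higher in 5 of 7 tested (sum 4052 to 5457 with saline and 4440.3 to 7655 with bleomycin), and Igkc, Pax5, Pou2af1 and Tnfrsf17 were listed at 0 in all saline libraries. T and natural killer markers were higher in 12 of 13 and lower in 1 (sum 12922 to 15696 with saline and 8067 to 11152 with bleomycin), with Cd8b1, Gzma and Nkg7 at 0 in saline. This sum was lower with bleomycin although 12 of 13 markers were higher, so it does not follow most of them. The 1 lower marker had a log2 difference of -0.74. Dendritic cell markers were higher in 8 of 10 (sum 1026 to 1684 with saline and 2573 to 4566 with bleomycin) and neutrophil markers in 3 of 8 (sum 2584 to 4339 with saline and 5763 to 6696 with bleomycin). Proliferation genes were lower in 6 of 18 (sum 29610.0 to 33117 with saline and 22999 to 25037 with bleomycin). Some of the higher markers had 0 saline libraries at the minimum of 10 and could only come out higher. These were 8 of the 12 for T and natural killer cells, 2 of 5 for plasma and B cells, 2 of 9 for epithelium and 1 each for fibroblasts and dendritic cells. More had fewer than 3 saline libraries at 10 and needed bleomycin libraries to be tested. These were 11 of 12 for T and natural killer cells, 4 of 5 for plasma and B cells and 5 of 9 for epithelium. For fibroblasts they were 3 of 4, for dendritic cells 3 of 8 and for monocytes and monocyte-derived macrophages 3 of 12. The part of any of these markers in the members' values was not tested.

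The other cytosolic members had differences below 0 in 8 of 8, with 0 past the threshold by limma, and without saline replicate 2 Dnajb1 turned to 0.10. Hsp90ab1, the constitutive cytosolic HSP90, had values of 58868, 96131 and 75997 (saline) and 55860.2, 52206 and 47355 (bleomycin). Its groups did not overlap, and the fitted level was 1.46-fold lower with bleomycin (-0.55 ± 0.19, limma adjusted p = 0.0988). It passed by DESeq2 (adjusted p = 0.022) and by limma without saline replicate 1 (0.029), with a range of 0.022 to 0.52 over 17 alternatives. Hsp90aa1, the inducible HSP90, had values of 6810.0, 10152 and 8079 (saline) and 5828, 7097 and 5713 (bleomycin) (-0.41 ± 0.16, limma adjusted p = 0.148), and its groups overlapped only through bleomycin replicate 2. Hsf1, the transcription factor that induces the others, had values of 1244, 1225 and 1099 (saline) and 938, 1097 and 912 (bleomycin), with no overlap between groups (-0.28 ± 0.13, limma adjusted p = 0.208). Hspa8 had values of 85269, 121616 and 88357 (saline) and 86342, 82714 and 65211 (bleomycin) (-0.33 ± 0.19, limma adjusted p = 0.328). Hsph1, the HSP110 that exchanges nucleotide on HSP70, had a difference of -0.42 ± 0.20, and Dnajb1, a J-domain partner of HSP70, of -0.081 ± 0.16.

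The inducible HSP70 genes Hspa1a and Hspa1b spanned a wider range within saline than the difference between the group means. They encode nearly the same protein and share 1716 windows of 50 bases, 58.8% of those in Hspa1a and 62.3% of those in Hspa1b, so reads may be split between them and their separate values are uncertain. Hspa1a values were 169.6, 2311 and 1132 (saline) and 281, 405 and 198 (bleomycin). Those of Hspa1b were 408, 3152 and 1561 (saline) and 421, 722 and 396 (bleomycin). In both, saline replicate 2 was the highest of the 6 libraries and saline replicate 3 the next, while saline replicate 1 was the lowest of the 6 for Hspa1a and lay between bleomycin libraries for Hspa1b. The saline maximum was 13.6 times the minimum for Hspa1a and 7.73 times for Hspa1b, widths reached by 0.0915% and 0.203% of the 9839 genes with a saline mean of at least 100. The differences were -1.43 ± 0.81 and -1.35 ± 0.63 (limma adjusted p = 0.322 and 0.224), with 95% intervals of the fold of 0.104 to 1.33 and 0.144 to 1.06. Without saline replicate 1 they were -2.51 and -2.17 and passed (limma adjusted p = 0.00538 and 0.00807), and without saline replicate 2 they were -0.63 and -0.69 (limma adjusted p = 0.683 and 0.521). Over 17 alternatives the adjusted p ran from 0.00538 to 0.683 for Hspa1a and 0.00807 to 0.554 for Hspa1b.

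**Figure D3:**
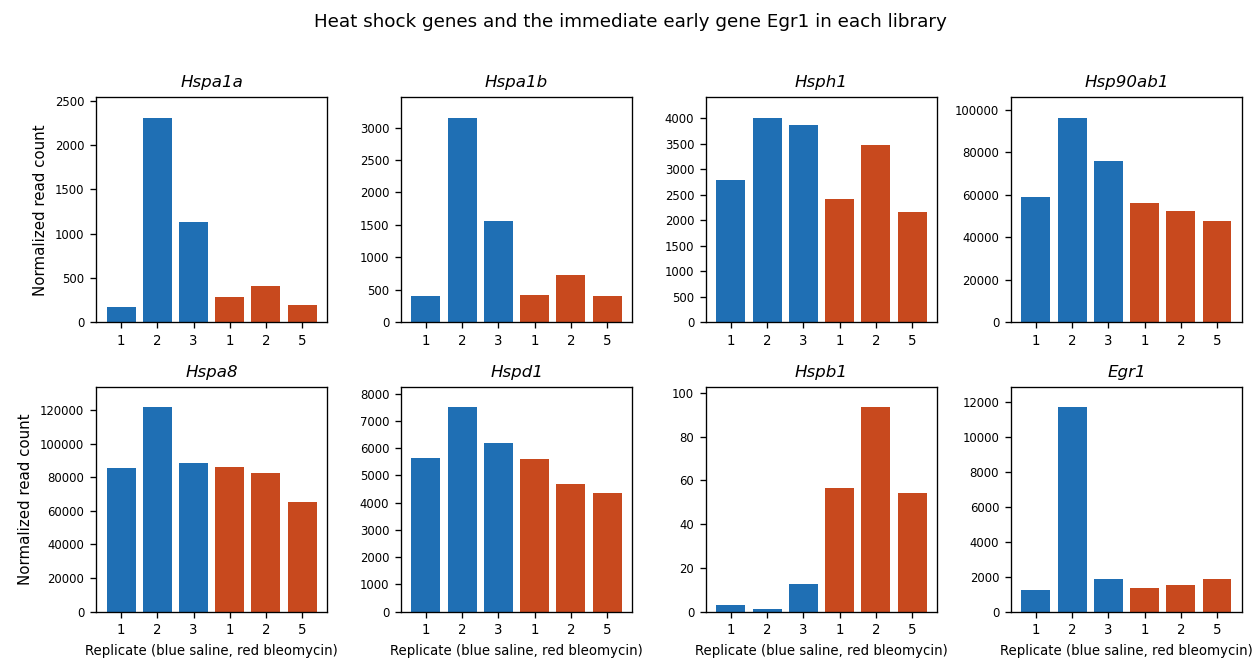
Value in each library (normalized read counts, bars from 0, a separate linear axis per gene) of 7 heat shock members and of the immediate early gene Egr1, with saline and bleomycin libraries in different colours. Saline replicate 2 is the highest bar for 6 of the 7 members shown and for Egr1, and Hspb1 is the exception.

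Saline replicate 2 was the highest of the 6 libraries for 9 of the 11 heat shock members (81.8%), against 17.4% of all tested genes. Bleomycin replicate 5 was the lowest of its group for 11 of 11, against 27.5%, and the lowest of all 6 for 7. The summed level of the arm was 164634, 251854 and 190899 (saline) and 162674, 156522 and 130024 (bleomycin). Genes of handling and early activation had their highest sum in the same library. Over 17 genes, of which 1 was called higher with bleomycin and 0 lower, it was 72006, 151025 and 87474 (saline) and 94681, 111569.6 and 111914 (bleomycin), with Egr1 at 1228, 11719 and 1881 (saline) and 1365, 1516 and 1864 (bleomycin) and Dusp1 at 3812, 16307 and 5043 (saline) and 4545, 6877 and 6357 (bleomycin). The part of handling in the heat shock values was not tested. In the ER arm the extremes lay in other libraries, saline replicate 3 being the highest of 6 for 13 of 27 members (48.1%, against 15.7% of all tested genes) and bleomycin replicate 5 the lowest for 14 (51.9%, against 15.6%). The ER arm summed to 301898, 334311 and 372583 (saline) and 329133, 316497 and 279075 (bleomycin).

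The mitochondrial chaperonin, in which HSP60 rings close under an HSP10 lid, is encoded by Hspd1 and Hspe1. Hspd1 values were 5651, 7496 and 6204 (saline) and 5617, 4697 and 4349.5 (bleomycin), with every bleomycin library below every saline library by a narrow margin (1.32-fold lower, -0.40 ± 0.14, limma adjusted p = 0.12). It passed in 1 of 17 alternatives, without bleomycin replicate 1 (limma adjusted p = 0.0479, range 0.0479 to 0.699). Hspe1 values were 2039, 3744 and 3214 (saline) and 3454, 2467 and 2245 (bleomycin) and overlapped (-0.12 ± 0.24, limma adjusted p = 0.821). The pair lie head to head on chromosome 1, chr1:55077835-55088243 and chr1:55088132-55091307, and their exons overlap by 112 bases on opposite strands. The sources used here do not say whether counting used strand, so reads in that overlap cannot be assigned. These positions are on GRCm38. The longest other exon overlaps on opposite strands were those of Hspa1a with Gm20481 (564 bases), Eif2ak3 with Gm43292 (485 bases) and Hsp90b1 with 1810014B01Rik (415 bases).

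Lists of related genes outside the 38 were counted in the same fit. Of 32 tested further ER folding enzymes 2 were higher and 1 lower, with a median difference of 0.064. Fkbp11, a prolyl isomerase of secretory cells, had values of 34.3, 41.3 and 44.5 (saline) and 179, 99.99 and 99.1 (bleomycin) (1.58 ± 0.30, limma adjusted p = 0.00911). Serpinh1, the collagen chaperone HSP47, had values of 16.7, 2.17 and 19.1 (saline) and 60.2, 80.2 and 103 (bleomycin) (2.95 ± 0.67, limma adjusted p = 0.0218), from 37 reads in saline and 259 in bleomycin. Serpinh1 lay under the filter's minimum value in saline replicate 2 and so needed bleomycin libraries to be tested. Without saline replicate 2 the log2 difference was 2.09, and after quantile normalization it was 2.30. The call of Serpinh1 was lost without bleomycin replicate 2 (limma adjusted p = 0.0711) or 5 (0.089), over a range of 4.96e-05 to 0.089. Mogs, the first glucosidase of glycan trimming, fell, with values of 1888, 1993 and 1828 (saline) and 1445, 1267 and 1252 (bleomycin) (-0.53 ± 0.11, limma adjusted p = 0.0159). It was not called without bleomycin replicate 2 (0.0904) or 5 (0.0917), over a range of 0.000832 to 0.392. The ER translocon and glycosylation genes had 0 of 25 past the threshold by limma, edgeR or DESeq2 (1 at an unadjusted p under 0.05 by limma, median -0.022), and 1 lower without bleomycin replicate 1. Of the tested markers 4 of 8 for fibroblasts and 5 of 7 for plasma and B cells were called higher, and their part in the Serpinh1 and Fkbp11 results was not tested.

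Among 25 further degradation genes 1 was higher and 1 lower, with a median of 0.047. Sel1l3 had values of 0, 0 and 6.36 (saline) and 38.6, 151 and 153 (bleomycin) (5.65 ± 0.88, limma adjusted p = 0.0038), from 6 reads in saline and 358 in bleomycin. Sel1l3 reached the minimum of 10 only in bleomycin libraries, so the choice of tested genes fixed its direction. Whether Sel1l3 takes part in degradation was not tested. The log2 difference was 6.61 without saline replicate 3, 6.30 without bleomycin replicate 1, 4.50 after quantile normalization and 3.96 at a pseudocount of 5. Derl3, a derlin of the retrotranslocation channel, had values of 54.9, 86.9 and 91.2 (saline) and 27.0, 42.9 and 34.5 (bleomycin) (-1.13 ± 0.31, limma adjusted p = 0.0477). It kept its call in 7 of 17 alternatives only, with a range of 0.0128 to 0.312, and lost it when saline replicate 2, saline replicate 3 or any bleomycin library was left out. Of 14 further sensors and processing factors 1, Wfs1, rose, with values of 271, 146 and 155 (saline) and 309.9, 477 and 541 (bleomycin) (1.23 ± 0.29, limma adjusted p = 0.0254). Wfs1 encodes the ER membrane protein wolframin, and it was no longer called when saline replicate 2 (0.0802), saline replicate 3 (0.0887), bleomycin replicate 2 (0.0939) or bleomycin replicate 5 (0.108) was left out, range 0.000805 to 0.12.

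The integrated stress response and its ATF4 targets had 1 higher and 6 lower of 35 tested, with a median of -0.093. Slc7a1, a carrier of cationic amino acids, had values of 1134, 1214 and 927 (saline) and 652, 612 and 663 (bleomycin) (-0.76 ± 0.14, limma adjusted p = 0.00803). Phgdh, the first enzyme of serine synthesis, had values of 4509, 6660.1 and 4193 (saline) and 2976, 1577 and 1340.4 (bleomycin) (-1.44 ± 0.29, limma adjusted p = 0.0133). Atf5 had values of 903, 1376 and 924 (saline) and 608, 354 and 508 (bleomycin) (-1.13 ± 0.24, limma adjusted p = 0.0147). Asns, which makes asparagine, had values of 242, 649.7 and 225 (saline) and 97.9, 135 and 99.99 (bleomycin) (-1.57 ± 0.39, limma adjusted p = 0.0294). The other 2 that fell were Shmt2 (-0.55 ± 0.14, limma adjusted p = 0.0306) and the amino acid carrier Slc7a5 (-0.84 ± 0.22, 0.0368). Other genes of the list were not called, among them Psat1 (0.10 ± 0.13), Mthfd2 (-0.67 ± 0.29) and Slc7a11 (0.058 ± 0.22) (limma adjusted p = 0.693, 0.191 and 0.911). Ddit4, an inhibitor of mTOR, rose, with values of 13.7, 19.6 and 18.0 (saline) and 36.8, 79.1 and 66.4 (bleomycin) (1.72 ± 0.37, limma adjusted p = 0.0174). Atf3, Chac1 and Sesn2, targets often read as ATF4 or CHOP activity, had differences of -0.093 ± 0.18, -0.073 ± 0.36 and -0.025 ± 0.14 (limma adjusted p = 0.811, 0.931 and 0.942). Calls of Asns and Slc7a5 were lost when some libraries were left out, Asns without any 1 of the bleomycin libraries (highest limma adjusted p 0.0993, range 0.000151 to 0.0993) and Slc7a5 when saline replicate 1, saline replicate 2, bleomycin replicate 2 or bleomycin replicate 5 was left out (highest 0.129, range 0.00164 to 0.129). Shmt2 lost it when saline replicate 2, saline replicate 3, bleomycin replicate 2 or bleomycin replicate 5 was left out (highest of these 0.144, range 0.00549 to 0.474) and Ddit4 without bleomycin replicate 2 or 5 (highest 0.0981, range 0.00115 to 0.0981).

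Of 41 tested further cytosolic chaperones and cochaperones 3 rose and 4 fell, with a median of -0.079. Among those that rose were the small heat shock protein genes Cryab and Hspb8. Cryab, which encodes alpha B-crystallin, had values of 25.5, 17.4 and 9.55 (saline) and 71.0, 95.6 and 87.1 (bleomycin) (2.30 ± 0.38, limma adjusted p = 0.00531), from 51 reads in saline and 267 in bleomycin. Hspb8, a partner of the cochaperone BAG3, had values of 0, 4.35 and 7.42 (saline) and 40.4, 62.6 and 89.6 (bleomycin) (4.12 ± 0.77, limma adjusted p = 0.00889), from 11 and 206 reads. Cryab lay under the minimum of 10 in saline replicate 3 and so needed bleomycin libraries to be tested. With 0 saline libraries at that minimum, Hspb8 was tested only through its bleomycin libraries and could only come out higher. Its log2 difference was 3.21 without saline replicate 1, 4.75 without saline replicate 3, 3.19 after quantile normalization and 2.99 at a pseudocount of 5. The epithelial and fibroblast markers whose counts stand beside Hspb1 above were measured in the same libraries, and their part in these 2 results was not tested either. The third to rise was Hsf4 (1.12 ± 0.26, limma adjusted p = 0.024). Hspa12a, a distant member of the HSP70 family, fell, with values of 3318, 2398 and 2187 (saline) and 1171, 1434 and 1166 (bleomycin) (-1.05 ± 0.17, limma adjusted p = 0.00493). Tomm34, Fkbp4 and Stip1, cochaperones of HSP70 or HSP90, fell by 0.56, 0.68 and 0.53 on the log2 scale (limma adjusted p = 0.00939, 0.0309 and 0.0415).

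Several of these calls rested on particular libraries. That of Tomm34 was lost without bleomycin replicate 2 or 5 (limma adjusted p = 0.0576 and 0.0583, range 0.000122 to 0.42). Fkbp4 lost its call when saline replicate 2, saline replicate 3, bleomycin replicate 2 or bleomycin replicate 5 was left out (highest of these 0.122, range 0.00463 to 0.475). Stip1 lost it without any 1 library other than saline replicate 1 (highest 0.178, range 0.0101 to 0.613), and Hsf4 without saline replicate 3 or bleomycin replicate 2 or 5 (highest 0.116, range 0.00395 to 0.371). The chaperonin TRiC and its partner prefoldin had 0 of 16 past the threshold by limma, edgeR or DESeq2 (3 at an unadjusted p under 0.05) and a median of -0.24. Further mitochondrial chaperones and proteases had 0 of 16 by limma or edgeR and 1 lower by DESeq2 (1 at an unadjusted p under 0.05 by limma) and a median of -0.15.

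**Figure D4:**
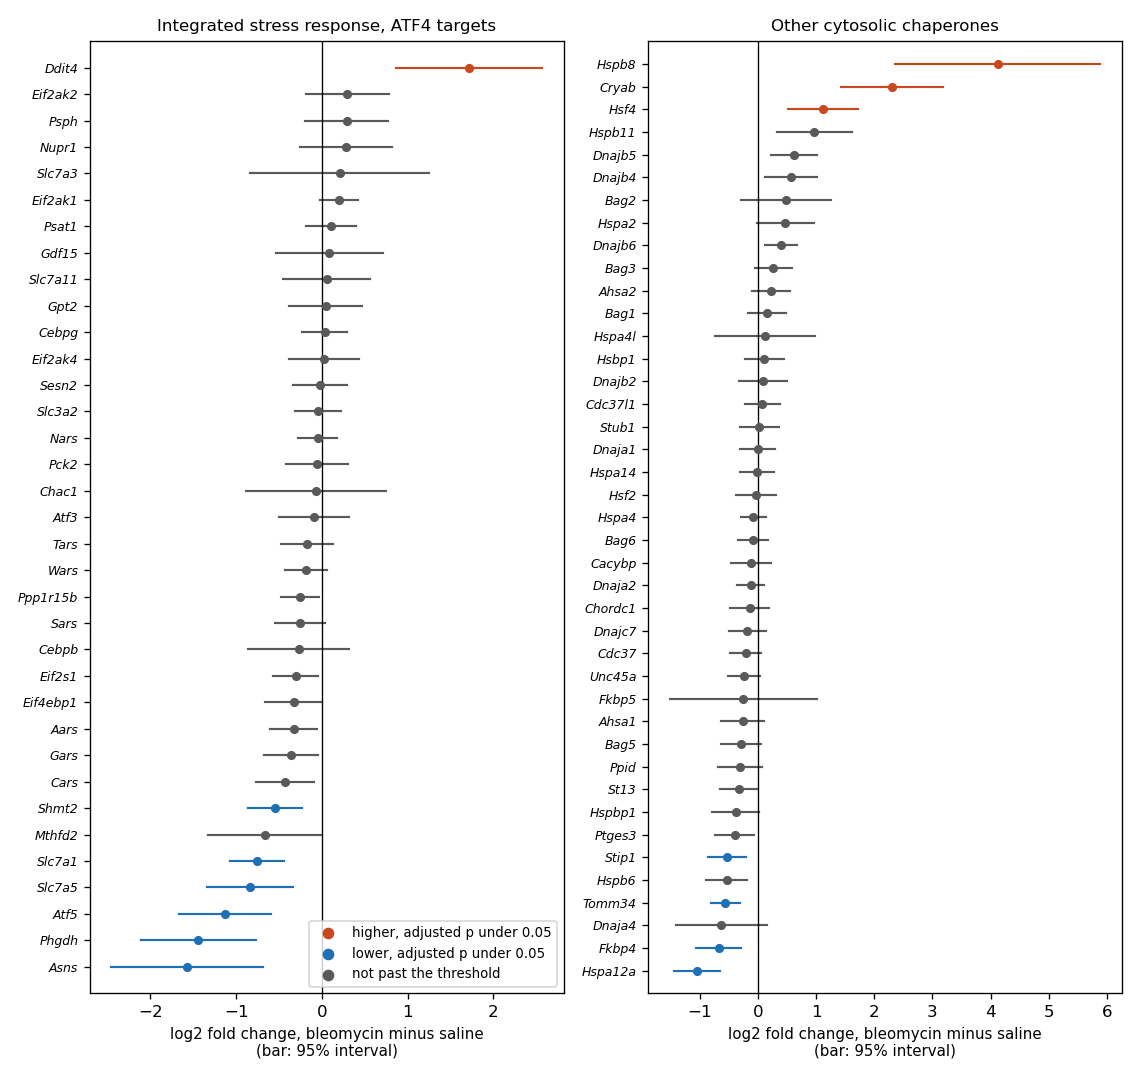
Log2 difference, bleomycin minus saline, with its 95% interval (x axis) of the 35 tested genes of the integrated stress response and of the 41 tested further cytosolic chaperones (y axis), from limma on log2(value + 1) with 3 libraries per group. Asns and Phgdh lie furthest below 0, and the small heat shock protein genes Hspb8 and Cryab furthest above 0.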

How the data were processed

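RNA from adherent lavage macrophages of 3 saline and 3 bleomycin samples was sequenced, and groups follow the treatment in the labels. The submitters' processing notes name mm10 and the tools STAR 2.5.2b, bcl2fastq 2.18.0.12, DESeq2 and HTSeq 0.6.0. The sources used here do not give the annotation release, the strand setting or filters. The values the authors deposited are a normalized signal. In every library they are steps of a constant, the value of 1 read, and division by it gave whole reads for 100% of values (within 0.05 of a read), so they are read counts scaled by a size factor. The totals were 27654799 to 37147983 reads, and 3 reads are worth 2.59 to 3.30. Symbols were matched for 22873 of 22962 genes, and positions come from an annotation of GRCm38.

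Tests covered the 13512 genes that reached 10 in 3 or more libraries. They were made by limma 3.58.1 (R 4.3.3) on log2(value + 1) with an intensity trend and no covariate, two-sided, with Benjamini-Hochberg adjustment over all of them. Folds are on this scale, where a larger pseudocount gives a smaller fold for genes near 0. The alternatives changed the pseudocount (0.5 or 5), the filter (none, or 50) and the scaling (TMM or quantile), left out the trend, took DESeq2 1.42.0 or edgeR 4.0.16 (quasi-likelihood) on the recovered reads, added a replicate block, or left out each library, or saline replicate 2 with bleomycin replicate 1. Fits without libraries kept the 13512 genes. The members, lists and alternatives were chosen with earlier results of these data known.

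Values in every library were printed for called members, for the 3 members of each role group with the smallest p, and for the 3 called genes of each pathway list with the smallest p. Other members are given by values or ranges. Asns, Shmt2, Slc7a5, Ddit4, Psat1, Mthfd2, Slc7a11, Atf3, Chac1, Sesn2, Hsf4, Tomm34, Fkbp4, Stip1 and the marker genes other than Krt19, Epcam, Lyz2 and Cd68 were named after their values were seen. Markers that the rule names and that no result here turns on are left in their lists' counts. Promoter elements were searched on both strands of RefSeq windows.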

Additional observations from a re-analysis of the deposited data

How the results depend on the processing

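Over the 38 members and 17 alternatives, 598 of 646 log2 differences kept their direction and their side of the threshold, 20 newly passed it, 0 lost it and 28 changed sign. Hspb1 passed in 17 of 17, 8 other members in some, and 29 in none. The number of members called higher was 2, against 1, at a pseudocount of 5, after TMM rescaling, by edgeR and by DESeq2 (each adding Eif2ak3), and 2 when saline replicate 2 and bleomycin replicate 1 were left out jointly (adding Ppp1r15a). It ranged from 1 to 2 when 1 library was left out. The number called lower, 0 by limma, was 3 by DESeq2 and 1 without the same 2 libraries together (Xbp1), and ranged from 0 to 4 when 1 library was left out, with 4 without saline replicate 1 and 3 without bleomycin replicate 1. Over all genes, leaving out 1 library gave 768 (without bleomycin replicate 5) to 1457 higher and 183 (without bleomycin replicate 5) to 624 lower. Of the integrated stress response 2 were higher with no filter or with the same 2 libraries left out, and 0 to 2 with 1 library left out. At a minimum of 50 the count was 0, where Ddit4 did not pass the filter and was not tested. Its lower calls numbered 2 with no intensity trend and 3 to 7 with 1 library left out. Further cytosolic chaperones had 6 higher by DESeq2 and 5 without the 2 libraries together, and 2 lower with no intensity trend and 1 to 4 with 1 library left out. Quantile normalization moved the median of all genes from -0.0096 to -0.097.

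The sign changes were in members with a limma adjusted p of 0.514 or more, and 0 came with TMM or quantile scaling. When saline replicate 2 and bleomycin replicate 1 were left out jointly, Hspa5 was at -0.032, Dnajb11 at -0.14, Dnajc3 at -0.082, Herpud1 at -0.024, Syvn1 at -0.048, Sel1l at -0.040 and Dnajb1 at 0.11. With 1 library left out, Hspa5 ranged from -0.021 to 0.30, Dnajb11 from -0.10 to 0.10, Dnajc3 from -0.059 to 0.22, Sdf2l1 from -0.32 to 0.027, Manf from -0.42 to 0.033, Herpud1 from -0.024 to 0.15, Syvn1 from -0.063 to 0.28, Sel1l from -0.062 to 0.15, Dnajb1 from -0.17 to 0.10 and Hspe1 from -0.38 to 0.063. The cause was not tested.

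The replicate numbers are only names here. Numbers 1 and 2 occur in both groups, and the deviations of same-numbered libraries correlated at -0.20 and 0.024. With the replicate block, the difference rests on these 2 pairs with 1 residual degree of freedom. The block left 194 genes lower over all, 0 genes of the integrated stress response higher and 1 further cytosolic chaperone lower. It put Dnajb9 at 0.049, Sdf2l1 at 0.17, Pdia3 at 0.042, Manf at 0.18, Creld2 at 0.096, Ern1 at -0.021 and Hspe1 at 0.079.

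A value of 2.59 to 3.30 corresponds to 3 reads, and the lowest value of the members other than Hspb1 was 87.9 (Trib3). For Hspb1 the saline value rests on 16 reads, so its fold is imprecise.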
